A study of Mus musculus with 13 samples.

Results

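The 10 genes described here encode the inflammasome machinery, interleukin-18 and gasdermins of the mouse colon epithelium: Nlrp6, Pycard, Casp1, Casp4, Casp8, Il18, Gsdmd, Gsdmc2, Gsdmc3 and Gsdmc4. They were chosen by name as 10 of the 32285 rows of the gene table, and all 10 had at least 100 UMI (unique molecules counted) in all cells together, as did 11059 genes of the table. Cells came from whole colons of 2 groups of C57BL/6J mice: germ-free mice, which carry no microbes, and wild type mice treated with antibiotics, whose drugs, ages and sexes the labels do not give. In both groups EPCAM+ CD45- epithelial cells were pooled by condition and then sorted, with CD44+ (proliferative) and CD44- (differentiated) cells taken 1:1, so the balance of crypt and surface cells was set by the sort; RNA was read with a droplet kit that captures 3′ ends. Control mice were not analysed here. The germ-free pool held 768 cells in 2 sets (named 3 and 4 in the cell names) with 3100880 UMI, and the antibiotic pool held 3415 cells in 3 sets (1, 2 and 3) with 36530277 UMI. With 1 pool per condition, no test between conditions was possible. The labels put all germ-free libraries in one batch and all antibiotic libraries in another, and these cannot be told apart from the conditions.

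An inflammasome is a protein platform that forms when a sensor detects microbial or damage signals. The sensor recruits the adaptor ASC (the product of Pycard), which gathers and activates caspase-1. Caspase-1 matures interleukin-18 and cleaves gasdermin D, whose freed fragment forms pores in the cell membrane and can end in lytic death, called pyroptosis. Caspase-11, the product of mouse Casp4, detects bacterial lipopolysaccharide inside the cell and also cleaves gasdermin D, whereas caspase-8 links death receptors to apoptosis. NLRP6 is a sensor known from the intestinal epithelium, and epithelial interleukin-18 acts on barrier and antimicrobial defence. The mouse Gsdmc genes are a cluster of near copies, known in the mouse gut to be raised in epithelium during worm infection.

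Levels are given in CPM, the UMI of a gene per 1000000 UMI of the cells summed, and a level is never compared between genes. Il18 and the Gsdmc genes were higher in distal than in proximal colonocytes in every cell set, Casp1 and Gsdmd were higher in colonocytes than in crypt cells, and Nlrp6 was lower in goblet cells than in colonocytes. Between conditions, over whole pools, Pycard stood 1.89-fold higher in germ-free cells and Gsdmd 1.65-fold lower, while the remaining 8 genes differed by less than 1.5-fold.

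In the annotation used (GENCODE vM21, mm10), Nlrp6 lies at chr7:140920902-140929192 on the plus strand and Pycard at chr7:127989708-127993867 on the minus strand. Casp1 (chr9:5298517-5307265) and Casp4 (chr9:5308828-5336783) are neighbours on the plus strand, and Il18 (chr9:50554827-50581840, plus strand) is on the same chromosome. Casp8 is at chr1:58795374-58847503 and Gsdmd at chr15:75862327-75867408, both on the plus strand. Gsdmc2 (chr15:63824346-63845177), Gsdmc3 (chr15:63857724-63878558) and Gsdmc4 (chr15:63891264-63912297) follow each other on the minus strand of chromosome 15. All are protein-coding genes.

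The first 120 bases of the coding sequence, from the start codon, are shown for the 3 Gsdmc genes because their likeness limits how their counts can be read. They are from the GENCODE transcripts, 5′ to 3′, and capitals mark the 2 positions at which the 3 sequences are not identical.
Gsdmc2: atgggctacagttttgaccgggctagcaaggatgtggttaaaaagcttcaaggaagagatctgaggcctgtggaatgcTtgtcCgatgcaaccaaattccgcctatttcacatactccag
Gsdmc3: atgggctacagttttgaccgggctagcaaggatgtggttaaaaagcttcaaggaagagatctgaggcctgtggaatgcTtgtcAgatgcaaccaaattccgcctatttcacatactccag
Gsdmc4: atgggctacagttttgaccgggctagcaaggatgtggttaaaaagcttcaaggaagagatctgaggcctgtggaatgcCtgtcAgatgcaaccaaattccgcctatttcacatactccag
Over the whole coding sequence, 1443 bases in each gene, Gsdmc2 and Gsdmc3 were 97.09% identical. Gsdmc2 and Gsdmc4 were 92.89% identical, and Gsdmc3 and Gsdmc4 were 93.03% identical. Of all 90-base stretches of the Gsdmc2 transcript, 26.34% also occurred in that of Gsdmc3 and 13.12% in that of Gsdmc4, so a read can match more than one copy. Of such stretches in the last 300 bases of Gsdmc2, near which a 3′ kit reads, 15.17% occurred in the Gsdmc3 transcript. Of those in the last 300 bases of Gsdmc3, 0% occurred in Gsdmc2, and neither gene shared any with Gsdmc4. Shorter stretches of 31 bases there were shared with Gsdmc4, 22.22% of those of Gsdmc2 and 21.48% of those of Gsdmc3. No label says how such reads were counted, and the split of UMI among the 3 genes, above all between Gsdmc2 and Gsdmc3, is therefore uncertain.

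Promoter windows, from 250 bases before to 50 after the start of transcription, were present for 7 of the 10 genes in the RefSeq table used (GRCm38.p6). They were searched on both strands for 6 short patterns chosen after these data had been seen: the STAT6 type, TTC and GAA with 4 free bases between them (present in 6.95% of all 32851 promoters), TTCNNNGAA (other STATs, 8.3%), the interferon regulatory factor type, GAAA and GAAA with 2 free bases between (3.44%), CAAAGTCCA (HNF4, 0.475%), CAATAAA (posterior HOX factors, 4.6%) and TGANTCA (AP-1, 7.81%). The patterns with 3 and with 4 free bases between TTC and GAA were counted apart. Of the 7 genes, matches were found in 2, Il18 and Nlrp6. The Il18 window (chr9:50554450-50554749, plus strand) held the STAT6-type pattern, in capitals, starting 46 bases before the start site, which in RefSeq lies upstream of the GENCODE start. The Nlrp6 window (chr7:140920652-140920951, plus strand) held the AP-1 pattern, in capitals, starting 140 bases before the start site. Both are shown because these genes carry the regional and the goblet-cell differences described below, and a match of letters is not a site in use.
Il18: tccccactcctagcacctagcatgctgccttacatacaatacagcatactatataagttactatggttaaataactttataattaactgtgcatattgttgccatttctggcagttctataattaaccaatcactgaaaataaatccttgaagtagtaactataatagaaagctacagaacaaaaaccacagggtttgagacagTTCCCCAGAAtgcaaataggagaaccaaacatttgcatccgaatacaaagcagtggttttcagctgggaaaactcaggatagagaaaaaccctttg
Nlrp6: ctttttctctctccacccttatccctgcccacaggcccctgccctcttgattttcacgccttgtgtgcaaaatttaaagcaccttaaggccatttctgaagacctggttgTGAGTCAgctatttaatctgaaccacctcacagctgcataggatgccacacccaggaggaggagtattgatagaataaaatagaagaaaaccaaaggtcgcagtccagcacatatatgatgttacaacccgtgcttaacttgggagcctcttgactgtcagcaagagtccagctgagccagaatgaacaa

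The cells matched their label as epithelium, and the sets differed in quality. The 5 epithelial markers (Epcam, Krt8, Krt18, Cdh1, Vil1) together made up 5513 CPM in the germ-free pool and 5242 CPM in the antibiotic pool. Of 11 immune markers, 8 had no UMI in germ-free cells and 4 had none in antibiotic cells. Their sum was 4.96 and 7.78 CPM in the germ-free sets and 8.41, 5.21 and 4.94 CPM in the antibiotic sets, with 16 of 23 germ-free and 181 of 211 antibiotic UMI in Cd52. Ptprc, which encodes CD45, had 1 UMI in germ-free cells and 20 in antibiotic cells. Median UMI per cell were 1045 and 4682 in germ-free sets 3 and 4, and 6760, 6599 and 7420 in antibiotic sets 1, 2 and 3. Mitochondrial genes took 18.6% and 18.7% of UMI in the germ-free sets, against 13.0%, 11.7% and 12.5% in the antibiotic sets. Germ-free set 3 held 403007 UMI, the fewest of all, and 140 of its 306 cells had under 1000 UMI. Where a set had no UMI of a gene in a gate, the count in every set given below still takes its value as 0.

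The antibiotic sets shared cell barcodes, so they are not independent of each other. In all, 810 barcodes occurred in more than one antibiotic set: 315 in sets 1 and 2, 48 in sets 1 and 3, and 501 in sets 2 and 3, with 27 of them in all 3. None was shared by the germ-free sets. Cells with the same barcode in sets 2 and 3 had a median correlation of expression of 0.55, against 0.35 for cells paired with another barcode, and the shallower copy held a median of 10.3% of the UMI of the deeper one. Leaving out the 837 shallower copies, which held 3.40% of antibiotic UMI, moved none of the 10 genes' log2 ratios between conditions by more than 0.02. The counts of the 10 genes between whole pools were unchanged. So were those for colonocytes over crypt cells, goblet over crypt cells and goblet cells over colonocytes. The counts for distal over proximal and surface over lower colonocytes were unchanged too. Other counts by cell type were not recomputed in this way. The values by cell type without these copies are given where they matter.

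Cell types were set by gates on marker genes, none of which is among the 10 genes. Cells with at least 1000 UMI were scored by the summed UMI of each marker list per 10000 UMI, with limits chosen after the values had been seen. Goblet cells had at least 40 UMI of goblet markers (such as Muc2 and Tff3). Crypt cells had at least 12 of cycling markers (such as Mki67), or at least 8 of stem-cell markers (such as Lgr5) with fewer than 60 of colonocyte markers. Colonocytes, the absorptive cells, had at least 60 of colonocyte markers (such as Slc26a3 and Krt20), and were divided into surface colonocytes (at least 50 of markers such as Aqp8 and Car4, all of them also colonocyte markers) and lower colonocytes. Proximal colonocytes had at least 25 of proximal and under 4 of distal markers (such as Hoxb13), and distal colonocytes had at least 4 of distal and under 25 of proximal markers. The remaining cells, below the goblet, crypt and colonocyte limits, are called low-score cells. The surface, proximal and distal limits were applied to colonocytes only. The gates held, for germ-free and antibiotic cells, 273 and 1132 colonocytes, 119 and 433 crypt cells, 157 and 1125 low-score cells, and 76 and 201 goblet cells, with 143 and 524 cells left out as too shallow. The limits cut through graded scores: 597 cells lay within 25% of the colonocyte limit, 421 within 25% of the proximal limit and 246 within 25% of the distal limit. No doublet caller was run, and 18 cells passed both the goblet and the colonocyte limits. Median UMI per colonocyte were 4375 in germ-free and 13586 in antibiotic cells. Low-score cells had the highest median mitochondrial share, 24.5% in germ-free and 17.4% in antibiotic cells.

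Nlrp6, the sensor, was higher in colonocytes than in crypt and goblet cells of both pools. It had 146 CPM in germ-free colonocytes and 134 CPM in antibiotic colonocytes, 88.1 and 62.8 CPM in germ-free and antibiotic crypt cells, and 14.9 and 20.2 CPM in germ-free and antibiotic goblet cells. The goblet over colonocyte ratio was 0.10 in germ-free cells (95% interval 0.03 to 0.24) and 0.15 in antibiotic cells (0.11 to 0.20). By set, goblet cells had 0 and 17.1 CPM in germ-free sets 3 and 4 and 18.5, 24.8 and 17.3 CPM in antibiotic sets 1, 2 and 3, while colonocytes had 44.4 and 157 CPM in the germ-free sets and 136, 124 and 140 CPM in the antibiotic sets. Goblet cells were below colonocytes in every set, but germ-free set 3 had no Nlrp6 UMI in goblet cells, which allows up to 69.1 CPM (3 counts), above its colonocyte level. Intervals here and below are for 95% confidence and cover counting error only, not differences between mice. The colonocyte over crypt ratio was 1.66 in germ-free cells (1.21 to 2.30) and 2.13 in antibiotic cells (1.87 to 2.43), and in germ-free set 3, with 6 and 5 UMI, the order was the opposite. Without the shared copies the goblet over colonocyte ratio in antibiotic cells was 0.15 as well.

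Pycard, which encodes the ASC adaptor, had a higher level in colonocytes than in crypt cells of antibiotic-treated mice. In germ-free mice its level was slightly lower in colonocytes, from 503 UMI there and 231 UMI in crypt cells. In germ-free sets 3 and 4, colonocytes had 429 and 351 CPM and crypt cells 572 and 383 CPM. In colonocytes Pycard had 358 CPM in germ-free cells and 213 CPM in antibiotic cells. In crypt cells it had 407 CPM in germ-free cells and 152 CPM in antibiotic cells, and within the crypt the cycling cells had 486 CPM against 266 CPM in stem-marker cells of germ-free mice, and 187 CPM against 119 CPM in antibiotic-treated mice. Antibiotic set 1 had no such difference, with 131 CPM in cycling and 134 CPM in stem-marker cells. Antibiotic lower colonocytes had 275 CPM and antibiotic surface colonocytes 150 CPM. The surface over lower ratio was 0.79 in germ-free cells (0.65 to 0.95) and 0.54 in antibiotic cells (0.51 to 0.58), and it was below 1 in all 5 sets. These gates differed in region: distal cells made up 17 of 96 surface and 67 of 177 lower germ-free colonocytes. Among proximal colonocytes alone Pycard had 355 CPM in surface and 360 CPM in lower germ-free cells, and 155 and 252 CPM in antibiotic cells. Germ-free set 4 had 361 CPM in surface and 332 CPM in lower proximal colonocytes, the opposite order.

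**Figure D1:**
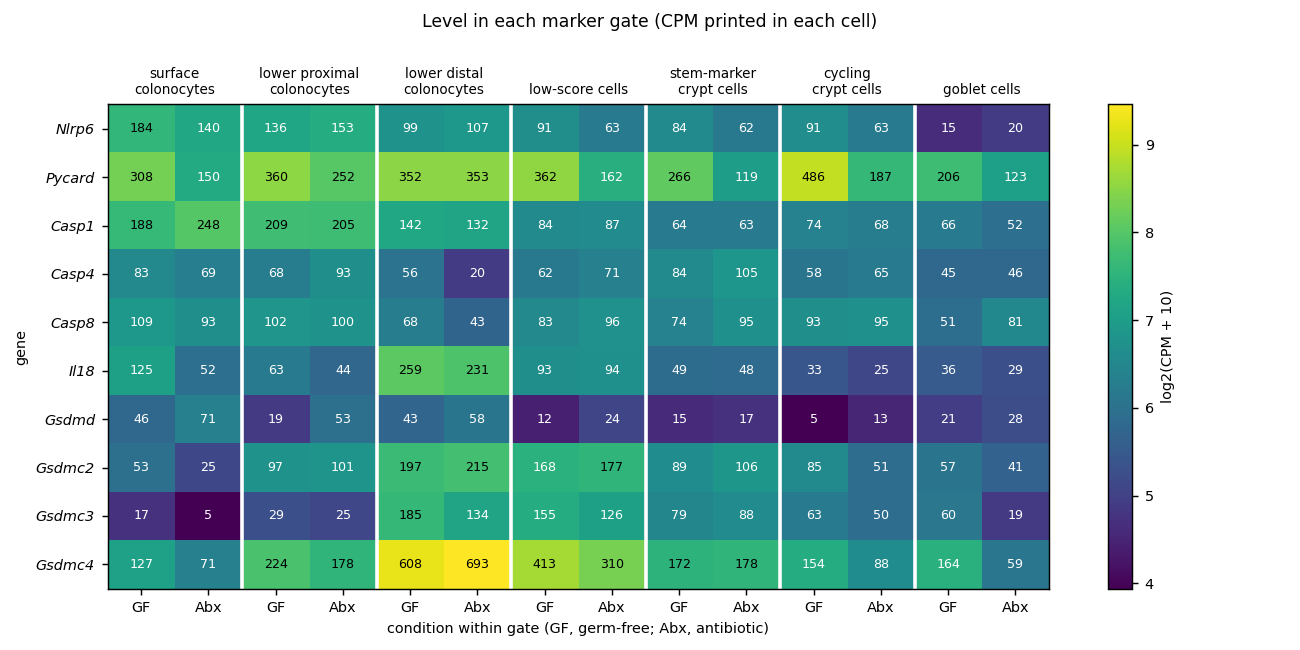
CPM of the 10 genes (rows) in 7 marker gates, with germ-free (GF) left of antibiotic (Abx) cells in each gate; printed numbers are CPM and colour is log2(CPM + 10). Of the gates drawn, Gsdmc4 is highest in lower distal colonocytes (608 and 693 CPM) and Nlrp6 lowest in goblet cells (14.9 and 20.2 CPM).

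Casp1, whose product matures interleukin-18, followed colonocyte maturity. It had 167 CPM in germ-free colonocytes and 210 CPM in antibiotic colonocytes, against 70.5 and 65.5 CPM in germ-free and antibiotic crypt cells. The colonocyte over crypt ratio was 2.37 in germ-free cells (1.69 to 3.41) and 3.21 in antibiotic cells (2.84 to 3.65), and it was above 1 in all 5 sets: 2.17 and 2.44 in the germ-free sets, and 3.22, 3.37 and 3.25 in the antibiotic sets. Surface colonocytes were above lower colonocytes again, with 188 against 154 CPM in germ-free cells and 248 against 172 CPM in antibiotic cells. Among proximal colonocytes alone the values were 214 against 209 CPM in germ-free cells and 255 against 205 CPM in antibiotic cells. Goblet cells had 65.7 and 51.9 CPM in germ-free and antibiotic mice, near the crypt level.

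Casp4 and Casp8, the caspases of lipopolysaccharide sensing and of death receptor signalling, did not separate colonocytes from crypt cells in every set. Casp8 had 92.6, 86.3 and 50.7 CPM in colonocytes, crypt and goblet cells of germ-free mice, and 87.0, 95.1 and 81.2 CPM in those of antibiotic-treated mice. Casp4 had 76.9, 67.0 and 44.8 CPM in these cells of germ-free mice, and 68.7, 85.7 and 45.7 CPM in those of antibiotic-treated mice. The colonocyte over crypt ratio of Casp8 was 1.07 in germ-free cells (0.77 to 1.52) and 0.91 in antibiotic cells (0.82 to 1.02), so neither interval left out 1. Casp4 was lower in colonocytes than in crypt cells of antibiotic sets 2 and 3, at 68.3 against 83.5 CPM and 62.8 against 89.8 CPM. Antibiotic set 1 had 82.6 against 82.3 CPM.

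Il18, the cytokine, was 3.75-fold higher in colonocytes than in crypt cells of germ-free mice (2.41 to 6.11) and 2.17-fold higher in those of antibiotic-treated mice (1.83 to 2.58). Its levels were 145 against 38.8 CPM in germ-free cells and 79.6 against 36.7 CPM in antibiotic cells. Most of this difference lay in distal colonocytes, with 303 and 225 CPM in germ-free and antibiotic mice. Proximal colonocytes had 57.5 and 42.7 CPM of Il18 in germ-free and antibiotic mice, closer to the crypt level. Goblet cells had 35.8 and 28.8 CPM in germ-free and antibiotic mice, at about the crypt level. Gsdmd, the pore-forming target of caspase-1, had 46.0 CPM in germ-free and 70.8 CPM in antibiotic surface colonocytes. In crypt cells it had 8.81 and 14.8 CPM in germ-free and antibiotic mice. Its colonocyte over crypt ratio was 4.45 in germ-free cells (1.79 to 14.2), where the crypt value rested on 5 UMI, and 4.04 in antibiotic cells (3.12 to 5.31).

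In all, 4 of the 10 genes (Casp1, Il18, Gsdmd and Gsdmc4) were higher in colonocytes than in crypt cells in every set and 0 were lower. Over all 11059 genes, 14.5% were higher in every set and 27.6% lower. The Gsdmc4 call held for colonocytes of all regions together and not for proximal ones. Proximal colonocytes had 133 CPM of Gsdmc4 against 160 CPM in crypt cells of germ-free mice, and 113 against 134 CPM in antibiotic-treated mice. For goblet over crypt cells, 1 of 10 (Gsdmd) was higher in every set, against 9.39% of all genes. Lower in every set were 5 (Nlrp6, Pycard, Casp8, Gsdmc2 and Gsdmc3), against 16.0% of all genes. In germ-free set 3 the Casp8 gap was small, with 115 CPM in goblet and 122 CPM in crypt cells, and goblet cells had no Nlrp6 UMI. The Gsdmd call for goblet over crypt rested on few molecules (7 against 5 UMI in germ-free cells), and the crypt cells of germ-free set 3 held none. It was lost when cells were thinned to 1000 UMI each and when cells above 15% mitochondrial UMI were left out. For goblet cells over colonocytes, 0 of 10 were higher in every set, against 19.4% of all genes, and 7 were lower, against 14.2% of all genes: every gene but Casp4, Casp8 and Gsdmd. The goblet gate differed between conditions, with a median of 391 goblet-marker UMI per 10000 in germ-free cells and 89.6 in antibiotic cells, and the part of this in the goblet values was not tested. Within the crypt, 0 of 10 genes were higher in cycling than in stem-marker cells in every set, against 7.92% of all genes, and 1 (Gsdmc3) was lower, against 4.50%.

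The Gsdmc genes followed another course than Casp1, Nlrp6 and Gsdmd, with a maximum at intermediate colonocyte scores. With all cells but goblet cells ordered by their colonocyte-marker UMI per 10000, antibiotic cells had 138, 183, 262, 370, 239 and 79.4 CPM of Gsdmc4 in the bins 0 to 10, 10 to 20, 20 to 40, 40 to 80, 80 to 160 and above 160. Germ-free cells had 105, 278, 419, 268 and 191 CPM of Gsdmc4 in the bins from 10 to 20 upward. The first bin held 10 germ-free cells and is not used for them. In both pools Gsdmc4 was thus highest in the bin of 40 to 80 and lower on both sides of it. Gsdmc2 was also highest there, with 173 CPM in germ-free and 170 CPM in antibiotic cells, and had 60.04 and 24.4 CPM in the last bin of germ-free and antibiotic cells. Gsdmc3 was highest in the bin of 40 to 80 in germ-free cells (139 CPM) and of 20 to 40 in antibiotic cells (118 CPM), and had 31.3 and 5.59 CPM in the last bin of germ-free and antibiotic cells. The bins were not divided into proximal and distal cells.

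Along the same score Casp1 was higher in each bin than in the one before, with 56.5, 62.8, 108, 161 and 211 CPM in germ-free cells from the second bin on, and 47.6, 63.1, 80.04, 120, 191 and 259 CPM in antibiotic cells from the first. Nlrp6 had 48.4 CPM in the second bin and 193 CPM in the last in germ-free cells, and 49.5 and 143 CPM in antibiotic cells. Gsdmd had 16.1 and 60.04 CPM in these bins in germ-free cells, and 11.2 and 75.6 CPM in antibiotic cells. Casp8 stayed between 64.6 and 117 CPM in germ-free cells and between 82.9 and 101 CPM in antibiotic cells. By course, Nlrp6, Casp1 and Gsdmd were highest in the last bin in both pools, and the Gsdmc genes midway.

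**Figure D2:**
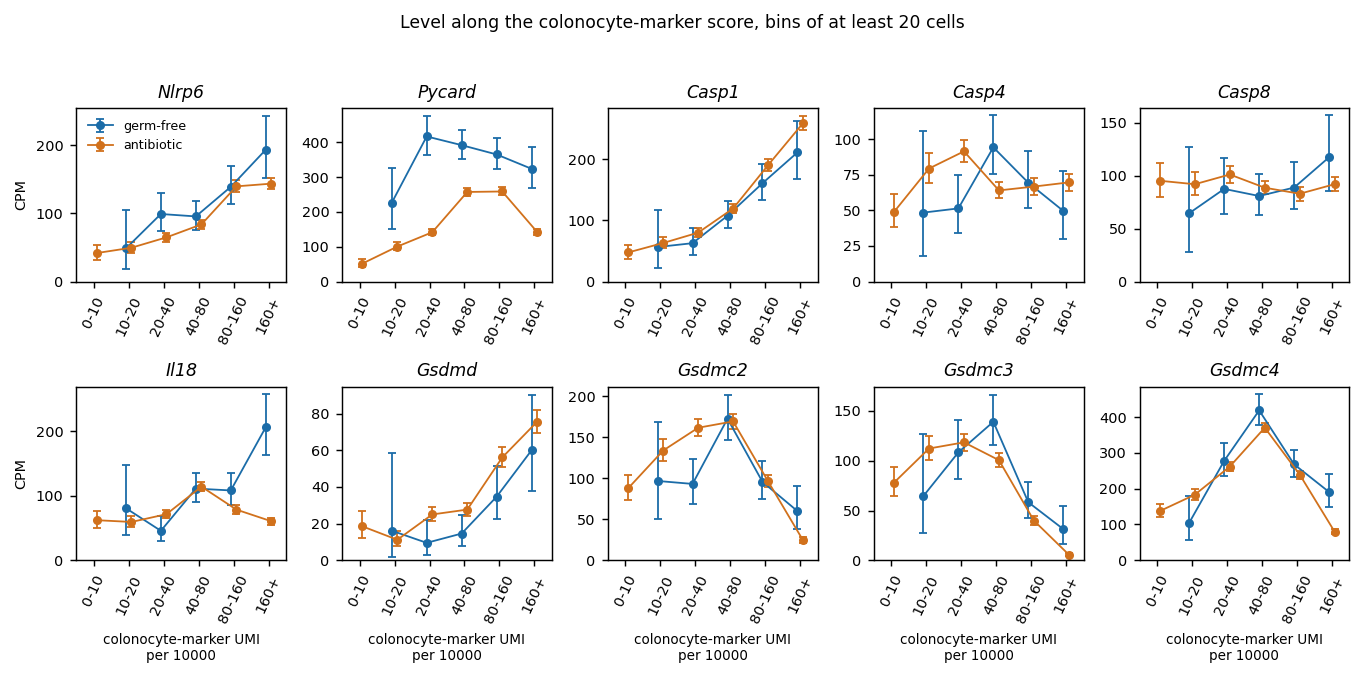
CPM of each gene (vertical axis, from 0) in bins of colonocyte-marker UMI per 10000 (horizontal axis, goblet cells left out) for germ-free (blue) and antibiotic (orange) cells; bars are 95% Poisson intervals and bins under 20 cells are not drawn. Casp1 reaches 211 and 259 CPM in the last bin, whereas Gsdmc4 peaks at 419 and 370 CPM in the bin of 40 to 80.

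The same contrast appeared between gates. Surface over lower colonocyte ratios of Gsdmc4 were 0.31 in germ-free cells (0.23 to 0.40) and 0.21 in antibiotic cells (0.20 to 0.23). Those of Gsdmc2 were 0.40 in germ-free cells (0.26 to 0.61) and 0.18 in antibiotic cells (0.16 to 0.21). Those of Gsdmc3 were 0.16 in germ-free cells (0.07 to 0.32) and 0.09 in antibiotic cells (0.06 to 0.12). Distal cells, in which these genes were higher, made up 34 of 521 surface and 136 of 611 lower antibiotic colonocytes. Among proximal colonocytes alone Gsdmc4 had 70.3 CPM in surface and 224 CPM in lower germ-free cells, and 74.4 and 178 CPM in antibiotic cells. The 3 Gsdmc genes and Pycard, 4 of 10, were lower in surface cells in every set, against 18.6% of all genes. Casp1 and Casp8, 2 of 10, were higher in every set, against 6.93% of all genes. Both of these calls were lost when cells were thinned to 1000 UMI and with gate limits raised 1.5 times, and leaving out germ-free set 3 gave 4 genes in place of 2. Gsdmc3 had no UMI in the 19 surface colonocytes of germ-free set 3, which allows up to 98.9 CPM, against 152 CPM in its lower colonocytes. Against crypt cells, lower colonocytes were higher in every set for 5 of 10 genes (Casp1, Il18, Gsdmd, Gsdmc2 and Gsdmc4), against 12.8% of all genes, and lower for 0, against 24.8%. Surface colonocytes were higher than crypt cells in every set for 2 (Casp1 and Il18), against 12.1% of all genes, and lower for the 3 Gsdmc genes, against 30.6%. Low-score cells were above crypt cells in every set for Il18 and the 3 Gsdmc genes, 4 of 10 against 5.62% of all genes, and below them for 0, against 21.2%. They were above surface colonocytes for the 3 Gsdmc genes, 3 of 10 against 19.8% of all genes, and below them for Casp1, 1 of 10 against 11.7%.

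Between the proximal and distal marker gates genes went in 2 directions, and Nlrp6, Pycard and Gsdmd took neither in every set. Pycard had 333 CPM in distal and 357 CPM in proximal colonocytes of germ-free mice, and 306 and 191 CPM in those of antibiotic-treated mice. Il18 had 303 CPM in distal and 57.5 CPM in proximal colonocytes of germ-free mice, and 225 CPM and 42.7 CPM in those of antibiotic-treated mice. The distal over proximal ratio was 5.27 in both pools, with an interval of 3.50 to 8.20 in germ-free cells and 4.69 to 5.93 in antibiotic cells. By set, distal colonocytes had 558 and 276 CPM of Il18 in germ-free sets 3 and 4 and 234, 247 and 205 CPM in antibiotic sets 1, 2 and 3. Proximal colonocytes had 113 and 52.2 CPM in the germ-free sets and 35.1, 41.9 and 47.2 CPM in the antibiotic sets. Distal values lay above all proximal values. Among lower colonocytes alone, the ratio for Il18 was 4.10 in germ-free cells (2.27 to 8.02) and 5.24 in antibiotic cells (4.44 to 6.20).

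The Gsdmc genes had the same direction. Gsdmc4 had 547 CPM in distal and 133 CPM in proximal colonocytes of germ-free mice, a ratio of 4.12 (3.12 to 5.50), and 575 and 113 CPM in those of antibiotic-treated mice, a ratio of 5.10 (4.74 to 5.48). By set its distal colonocytes had 558 and 546 CPM in the germ-free sets and 384, 638 and 590 CPM in the antibiotic sets, against 90.4 and 137 CPM and 129, 129 and 92.2 CPM in proximal colonocytes of the same sets. Gsdmc3 was 7.01-fold higher in distal colonocytes of germ-free mice (3.66 to 14.8) and 8.46-fold higher in those of antibiotic-treated mice (6.96 to 10.3). Gsdmc2 was 3.22-fold higher (2.04 to 5.23) in germ-free and 3.24-fold higher (2.88 to 3.64) in antibiotic cells. Without the shared copies the antibiotic ratios were 5.18 for Gsdmc4, 9.07 for Gsdmc3, 3.23 for Gsdmc2 and 5.23 for Il18.

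The caspases pointed the other way. Casp1 had a distal over proximal ratio of 0.73 in germ-free cells (0.53 to 1.01) and 0.62 in antibiotic cells (0.56 to 0.69). Casp8 had 0.61 (0.37 to 0.98) in germ-free and 0.53 (0.44 to 0.62) in antibiotic cells. Casp4 had 0.58 (0.32 to 1.02) in germ-free and 0.32 (0.25 to 0.40) in antibiotic cells, from 46.8 CPM in distal and 81.3 CPM in proximal colonocytes of germ-free mice and 25.3 and 79.6 CPM in those of antibiotic-treated mice. Within lower colonocytes the Casp4 ratio was 0.82 in germ-free cells (0.38 to 1.77) and 0.22 in antibiotic cells (0.16 to 0.30). In counts, 4 of 10 genes (Il18 and the 3 Gsdmc genes) were higher in distal colonocytes in every set, against 10.6% of all genes, and 3 (Casp1, Casp4 and Casp8) were lower, against 8.51% of all genes. Thinning to 1000 UMI per cell left 1 of the 3 lower ones, and germ-free set 3 had no Casp4 UMI in distal colonocytes. Among lower colonocytes, Il18 and the 3 Gsdmc genes were again higher in distal cells in every set, 4 of 10 against 8.41% of all genes, and Nlrp6, Casp1 and Casp8 were lower, 3 of 10 against 6.61%. The proximal gate held a median of 33.6 proximal-marker UMI per 10000 in germ-free cells and 53.9 in antibiotic cells, and the distal gate 8.37 and 9.48 distal-marker UMI in germ-free and antibiotic cells.

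**Figure D3:**
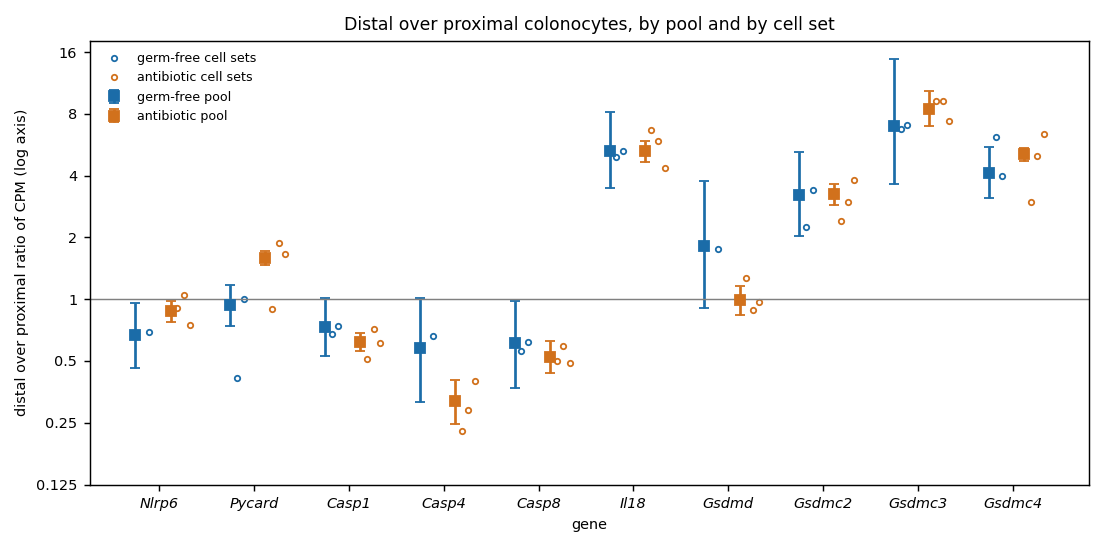
Ratio of CPM in distal over proximal colonocytes for each gene (log axis) in germ-free (blue, left) and antibiotic (orange, right) cells; squares are pools with 95% intervals, open circles are cell sets, and sets with no UMI in a gate are not drawn. Il18 (5.27 in both pools) and the Gsdmc genes lie above 1 in all sets drawn, and Casp1, Casp4 and Casp8 below 1.

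Between conditions, each of the 10 genes was compared over whole pools and by cell set. In sums over a pool, fewer cells of a type and less RNA per cell cannot be told apart. Pycard had 370 and 344 CPM in germ-free sets 3 and 4, against 158, 217 and 171 CPM in antibiotic sets 1, 2 and 3. Both germ-free sets lay above all antibiotic sets, and the pooled values of 347 and 183 CPM in germ-free and antibiotic cells gave a ratio of 1.89 (1.77 to 2.02). Gsdmd had 19.9 and 25.6 CPM in the germ-free sets, against 36.6, 41.0 and 43.2 CPM in the antibiotic sets. Both germ-free sets lay below all antibiotic sets, and Gsdmd was 1.65-fold lower in germ-free cells (1.31 to 2.11), at 24.8 against 41.0 CPM.

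Il18 had 114 and 96.0 CPM in the germ-free sets, against 70.3, 84.2 and 73.2 CPM in the antibiotic sets, with a ratio of 1.29 (1.14 to 1.45). Gsdmc3 had 117 and 83.4 CPM in the germ-free sets, against 63.4, 75.8 and 61.4 CPM in the antibiotic sets, with a ratio of 1.32 (1.16 to 1.49). Gsdmc4 had 370 and 271 CPM in the germ-free sets, against 202, 259 and 201 CPM in the antibiotic sets, with a ratio of 1.29 (1.20 to 1.38). For these 3 genes the germ-free sets lay above all antibiotic sets, by a small margin between germ-free set 4 and antibiotic set 2.

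The other 5 genes overlapped between conditions. Nlrp6 had 52.1 and 115 CPM in the germ-free sets, against 93.7, 90.4 and 101 CPM in the antibiotic sets, so that the germ-free sets lay on either side of the antibiotic ones. Casp1 had 144 and 115 CPM in the germ-free sets, against 163, 144 and 135 CPM in the antibiotic sets, with a ratio of 0.83 (0.74 to 0.92) and germ-free set 3 inside the antibiotic range. Casp4, Casp8 and Gsdmc2 had ratios of 0.97 (0.84 to 1.11), 0.94 (0.82 to 1.06) and 0.99 (0.89 to 1.11), whose intervals all held 1.

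**Figure D4:**
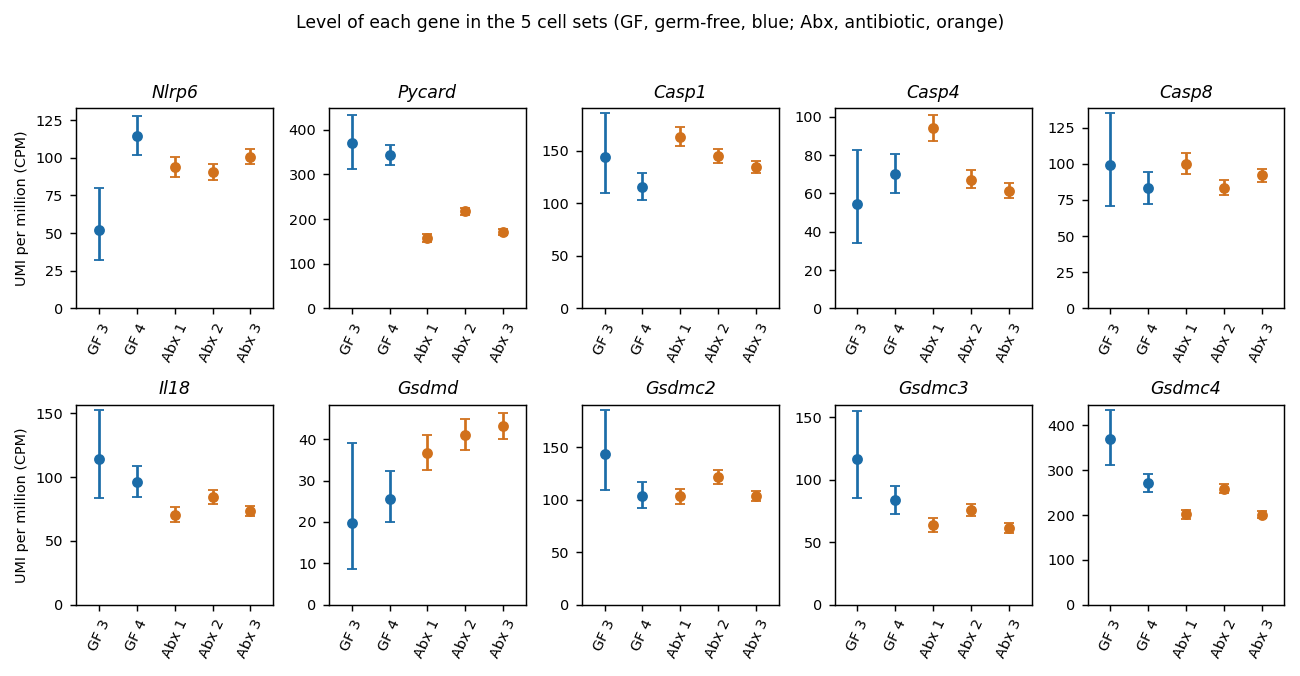
CPM of each gene (vertical axes from 0) in the 2 germ-free (GF, blue, left) and 3 antibiotic (Abx, orange, right) cell sets, with 95% Poisson intervals. Both germ-free sets of Pycard (370 and 344 CPM) lie above the antibiotic sets and both of Gsdmd (19.9 and 25.6 CPM) below them.

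By these rules 5 of 10 genes had germ-free and antibiotic sets that did not overlap, 4 with germ-free higher and 1 with germ-free lower. The same held for 48.7% of all 11059 genes, 24.8% with germ-free higher and 23.9% lower, so the count is near the background. Past 1.5-fold as well, Pycard was higher and Gsdmd lower, 2 of 10, against 16.7% of all genes (7.84% higher and 8.83% lower). The median log2 ratio was 0.07 over the 10 genes and 0.03 over all genes. Scaling to totals without mitochondrial genes shifted the median gene by 0.11 on the log2 scale, and median-of-ratios scaling by -0.10. Under these scalings Pycard had log2 ratios of 1.03 and 0.82, and Gsdmd of -0.62 and -0.83. In cells thinned to 1000 UMI the log2 ratio of Gsdmd was -0.24 and its sets overlapped. Counting each cell equally, in place of summing, the Gsdmd sets overlapped too, with a log2 ratio of -0.42. Without germ-free set 4, Nlrp6 had a log2 ratio of -0.88, against 0.15 with all sets.

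Within gates the differences between conditions were uneven. Pycard was higher in germ-free cells in all 5 broad gates, with ratios of 2.05 in surface colonocytes (1.74 to 2.41), 1.42 in lower colonocytes (1.26 to 1.59), 2.23 in low-score cells (1.95 to 2.55), 2.69 in crypt cells (2.30 to 3.13) and 1.68 in goblet cells (1.27 to 2.20). Its germ-free sets lay above all antibiotic sets in each of these gates. In lower distal colonocytes alone Pycard had 352 CPM in germ-free and 353 CPM in antibiotic cells.

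Il18 was 2.41-fold higher in germ-free surface colonocytes (1.84 to 3.11) and 1.47-fold higher in germ-free lower colonocytes (1.22 to 1.76). Its sets in surface colonocytes were 429 and 107 CPM in germ-free sets 3 and 4, against 57.0, 58.3 and 45.6 CPM in antibiotic sets 1, 2 and 3, and the value of set 3 rests on 13 UMI in 19 cells. Distal cells made up 17 of 96 germ-free and 34 of 521 antibiotic surface colonocytes. Among surface proximal colonocytes Il18 had 53.6 CPM in germ-free cells (30.6 to 87.0) and 41.9 CPM in antibiotic cells (37.4 to 46.8). Among all distal and among all proximal colonocytes the germ-free over antibiotic ratio was 1.35 each, with intervals of 1.10 to 1.64 and 0.89 to 1.96, against 1.82 (1.57 to 2.11) over all colonocytes. In crypt and low-score cells the ratios were 1.06 (0.64 to 1.66) and 0.98 (0.75 to 1.27).

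Gsdmd had ratios below 1 in all 5 gates: 0.65 in surface colonocytes (0.42 to 0.97), 0.71 in lower colonocytes (0.47 to 1.03), 0.48 in low-score cells (0.21 to 0.96), 0.59 in crypt cells (0.19 to 1.46) and 0.75 in goblet cells (0.29 to 1.64). The intervals of 3 of them held 1. In low-score cells germ-free set 3, with 40.04 CPM of Gsdmd from 2 UMI, lay above all antibiotic sets (24.8, 22.2 and 24.8 CPM) and germ-free set 4, with 9.36 CPM, below them. Gsdmc4 was 1.79-fold higher in germ-free surface colonocytes (1.37 to 2.29) and 2.78-fold higher in germ-free goblet cells (1.98 to 3.85), at 164 against 59.1 CPM in goblet cells of antibiotic-treated mice, and 1.26-fold higher in lower colonocytes (1.12 to 1.40). In surface colonocytes its sets overlapped, with 65.95 and 131 CPM in germ-free sets 3 and 4, against 64.4, 97.5 and 55.4 CPM in antibiotic sets 1, 2 and 3. Among surface proximal colonocytes Gsdmc4 had 70.3 CPM in germ-free and 74.4 CPM in antibiotic cells, a ratio of 0.95 (0.58 to 1.46). In lower distal colonocytes, where it was highest, Gsdmc4 had 608 CPM in germ-free cells (526 to 699) and 693 CPM in antibiotic cells (660 to 727), and in distal colonocytes as a whole the ratio was 0.95 (0.82 to 1.10).

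Gsdmc3 was 3.11-fold higher in germ-free goblet cells (1.72 to 5.44, from 20 and 40 UMI in germ-free and antibiotic cells) and 1.64-fold higher in germ-free lower colonocytes (1.30 to 2.06). Among lower distal colonocytes the Gsdmc3 ratio was 1.38 (1.03 to 1.83), and among lower proximal colonocytes 1.18 (0.43 to 2.66). Casp1 had a ratio of 0.76 in surface colonocytes (0.61 to 0.92), where germ-free set 3 (363 CPM) lay above and germ-free set 4 (178 CPM) below all antibiotic sets (284, 241 and 239 CPM), and ratios whose intervals held 1 in the other 4 gates. Past 1.5-fold in either direction were 6 of 10 genes in surface colonocytes (40.8% of all genes measured there), 1 in lower colonocytes (31.3%), 2 in low-score cells (34.3%), 2 in crypt cells (37.7%) and 4 in goblet cells (36.8%). The sum over the 5 gates was 15 of 50, with the members' shares on both sides of the background.

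**Figure D5:**
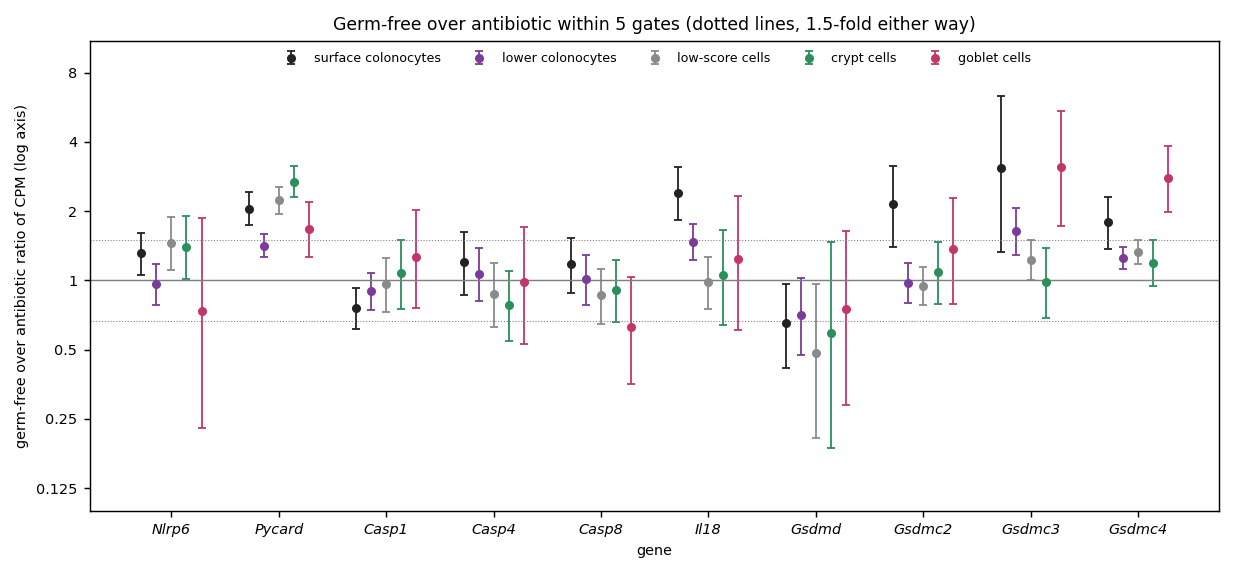
Germ-free over antibiotic ratio of CPM (log axis) for each gene within 5 gates, shown by colour, with 95% intervals; dotted lines mark 1.5-fold either way. Pycard lies above 1 in all 5 gates (1.42 to 2.69), whereas Gsdmc4 ranges from 1.19 in crypt cells to 2.78 in goblet cells.

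The rest of the pathway was read from a list of 50 other inflammasome, pyroptosis and caspase genes, of which 49 were in the table and 30 had at least 100 UMI. Among these 30, germ-free sets lay above all antibiotic sets for 6 and below them for 9, with 15 overlapping and a median log2 ratio of -0.11. As 24.8% of all genes lay above and 23.9% below, these counts are near the background. The 6 with the most UMI are named. Txnip, a redox regulator that binds NLRP3, had 337 CPM in germ-free and 346 CPM in antibiotic cells. The NAIP proteins detect bacterial flagellin and secretion-system proteins and act through NLRC4: Naip1 had 126 CPM in germ-free and 165 CPM in antibiotic cells, Naip6 had 80.3 CPM in germ-free and 96.1 CPM in antibiotic cells, and Naip2 had 73.2 CPM in germ-free and 81.6 CPM in antibiotic cells. Aim2, a sensor of cytosolic DNA, had 80.3 CPM in germ-free and 97.4 CPM in antibiotic cells, and Dhx15, an RNA helicase that partners NLRP6, had 99.0 and 82.5 CPM in germ-free and antibiotic cells. The germ-free sets lay below all antibiotic sets for Naip1, Naip6 and Aim2 and above them for Dhx15. The Naip genes are near copies of each other, so their counts may be shared. No UMI were found for 6 of the list, Nlrp1a, Nlrp3, Mefv, Gsdma3, Il1b and Il18rap, which allows up to 0.97 CPM in germ-free and 0.08 CPM in antibiotic cells.

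By cell type, 6 of the 30 genes were higher in colonocytes than in crypt cells in every set, against 14.5% of all genes, among them Nlrp1b, Nlrp9b, Naip1 and Txnip, and 3 (Nek7, Gsdme and Ninj1) were lower, against 27.6%. In distal over proximal colonocytes 4 (Nlrp1b, Nlrp9b, Aim2 and Il1rn) were higher, against 10.6% of all genes, and 5 were lower, against 8.51%, among them Naip5, Sugt1, Cflar and Ripk3. These names were read off the calls after the values had been seen. A second list held 11 genes of the interleukin-4, interleukin-13 and interleukin-22 receptors and their kinases and STATs, the signals known in mouse to act on epithelial Gsdmc and defence genes. Of its 8 genes with at least 100 UMI, germ-free sets were above the antibiotic sets for 0 and below them for 2, against 24.8% and 23.9% of all genes, with a median log2 ratio of -0.05. The 2 were Stat3 (98.7 CPM in germ-free and 122 CPM in antibiotic cells) and Stat6 (23.9 and 28.9 CPM). Jak1, a kinase of all these receptors, had 127 and 142 CPM in germ-free and antibiotic cells, Il13ra1 had 67.4 and 63.2 CPM, Il10rb had 31.6 and 33.8 CPM and Tyk2 had 13.5 CPM in both.

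Across 39 profiles (the narrowest gates, which share no cells, by cell set with at least 20 cells), the Gsdmc genes resembled each other most. Gsdmc2 and Gsdmc4 had a Pearson r of 0.88, Gsdmc3 and Gsdmc4 of 0.84, and Gsdmc2 and Gsdmc3 of 0.81, with shared reads as a caveat. These are descriptions over log2(CPM + 10), with no test. Il18 went with them at 0.71 for Gsdmc4 and 0.67 for Gsdmc2, and was at 0.10 with Casp1, whose product matures it. Nlrp6 and Casp1 were at 0.65, Casp1 and Gsdmd at 0.57, and Casp4 and Casp8 at 0.47.

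Of 7464 genes compared, the profile most like that of Casp1 was Slc39a4, a zinc transporter (0.92), followed by Sult1b1, a sulfotransferase, and 2200002D01Rik (0.90 each). Nlrp6 was nearest to Tnfaip1 (0.90), Tmem127 (0.88) and Fam98c (0.85). Gsdmd was nearest to Slc44a4, Smim22 and Spint2 (0.86, 0.85 and 0.85), and Il18 to Slc5a3, a myo-inositol transporter (0.81), Ak3 and Ap1s3 (0.78 each). Pycard was nearest to the mitochondrial respiratory genes Cox7a2l, Ndufb11 and Ndufab1 (0.80, 0.78 and 0.76). Gsdmc3 was nearest to Scd2, Wfdc2 and Hmcn1 (0.87 each), and Gsdmc2 and Gsdmc4 both had Car2, carbonic anhydrase 2, among their nearest genes, at 0.75 and 0.87. Hdac1 (0.79) and St14 (0.74) were among the genes nearest to Casp4, and Casp8 was nearest to Foxj3, Malrd1 and Slc6a6 (0.73, 0.71 and 0.67).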

How the data were processed

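Single-cell RNA sequencing measured germ-free and antibiotic-treated mouse colon epithelium in 5 cDNA libraries, 2 germ-free and 3 antibiotic. The 8 sample-barcode libraries were not used. The authors deposited expression on a natural log scale, as 1 table of genes by cells. Its scaling was read from the values: the exponential minus 1 summed to 10000 in every cell, and division by each cell's smallest value gave whole numbers, within 0.01, for 100% of 9481333 values, so UMI counts were recovered. The submitters' processing notes name Cell Ranger 7.0.0, kallisto, bustools and mm10, without roles; no source used here gives cell filters or strand. Germ-free set numbers (3 and 4) match no library label, so cells were assigned to conditions only. Cells of 1 pool are not replicates.

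UMI were summed per gate and cell set and divided by their total to give CPM. Levels carry 95% exact Poisson bounds and ratios 95% bounds from the binomial split of the 2 counts. Genes with at least 100 UMI entered the backgrounds, and gates with at least 20 cells entered the profiles. All 10 members were named, with the 6 genes of each pathway list that had the highest CPM and the 3 genes nearest in profile. Some genes that these rules or the pathway lists would name are not reported here. The members and lists were chosen with earlier results of these data known. The scripts were tested on simulated data. Python 3.11.15, NumPy 2.4.6, SciPy 1.17.1, pandas 2.3.3 and matplotlib 3.10.9 were used.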

Additional observations from a re-analysis of the deposited data

Results flagged for a closer look

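In 4 comparisons between gates the germ-free sets and the antibiotic sets lay on opposite sides of 1, with every germ-free set on one side and every antibiotic set on the other. The differences between conditions were not tested, since each condition is 1 pool.

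Pycard had a colonocyte over crypt ratio of 0.88 in germ-free cells and 1.40 in antibiotic cells, and a lower colonocyte over crypt ratio of 0.96 in germ-free cells and 1.82 in antibiotic cells. Its crypt level was 407 CPM in germ-free and 152 CPM in antibiotic cells. In germ-free set 4 the gaps were small, with 351 CPM in colonocytes, 377 CPM in lower colonocytes and 383 CPM in crypt cells.

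Il18 had a low-score over surface colonocyte ratio of 0.74 in germ-free cells and 1.81 in antibiotic cells, where distal cells made up 17 of 96 germ-free and 34 of 521 antibiotic surface colonocytes. In germ-free set 4 the gap was small, with 93.6 CPM of Il18 in low-score cells and 107 CPM in surface colonocytes. Casp4 had a surface colonocyte over crypt ratio of 1.24 in germ-free cells, from 45 and 38 UMI, and 0.805 in antibiotic cells. Germ-free set 3 had 1 UMI of Casp4 in each of the 2 gates.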

How the results depend on the processing

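The count of the 10 genes whose germ-free and antibiotic sets did not overlap was 5, and leaving out each cell set in turn gave 5 to 8, with 8 without germ-free set 3 and 8 without germ-free set 4, where fewer sets have to be passed. The count past 1.5-fold was 2. It was 1 with the mean of per-cell values and 4 with cells of at least 1000 UMI and at most 15% mitochondrial UMI, and 2 to 5 with a set left out (5 without germ-free set 4). The 15 of the other pathway genes apart became 16 to 29 with a set left out (25 without germ-free set 3 and 29 without germ-free set 4). The remaining settings gave 12 (mean of per-cell values) to 21 (no minimum UMI) of these genes. The 15 members past 1.5-fold within gates became 13 to 30 (30 without germ-free set 4). The 1 gene higher in goblet than in crypt cells became 0 with the mitochondrial filter and 0 with thinning. The other scalings, filters, gate limits and cell choices tried kept these counts within 1.5 times. The 5 genes whose sets did not overlap kept the sign of their ratio under each of these settings. Those of the other 5 changed sign under some: the log2 ratio of Nlrp6 ranged from -0.88 (without germ-free set 4) to 0.28, Casp1 from -0.40 to 0.06, Casp4 from -0.37 to 0.10, Casp8 from -0.29 to 0.13 and Gsdmc2 from -0.18 to 0.39. Of 120 log2 ratios of single genes under alternatives, 91 moved by less than their interval and 29 by more. The shared-barcode alternative, and those for the proximal, surface and goblet over colonocyte comparisons, were added after seeing the data. No paired analysis was possible because the germ-free and antibiotic libraries share no replicate numbers and each condition is 1 pool. Depth limits germ-free set 3 most.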
